A study of Mus musculus with 14 samples.

Results

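The nuclear genes of respiratory complex I were taken as all protein-coding genes whose GENCODE M21 symbol starts with Ndufa, Ndufb, Ndufc, Ndufs or Ndufv and a digit, together with Ndufab1 and without the Ndufaf assembly factors. The choice used symbols only and no measured value. It gave 38 genes of the 14248 with a listed transcript, and 38 genes of GENCODE M21 meet it. They lie on 15 chromosomes. Of the 38, 7 encode core subunits, 29 encode accessory subunits of the complex and 2 have no place in its modules: Ndufa4, whose product is now counted to complex IV, and Ndufa4l2, its hypoxia-inducible relative. Ndufa4l2 had 1 read in Scram replicate 1 and 1 read in ABCF1 knockdown replicate 1 of the Ribo-seq and no listed value elsewhere, so 37 genes are described from here on.

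Complex I, NADH:ubiquinone oxidoreductase, passes electrons from NADH to ubiquinone and pumps protons across the inner mitochondrial membrane. Its matrix arm holds the N module, where NADH is oxidised, and the Q module, where ubiquinone is reduced; its membrane arm has a proximal and a distal section. The remaining core subunits of the membrane arm are encoded by the mitochondrial genome, so the complex is built from proteins made on cytosolic and on mitochondrial ribosomes. Accessory subunits surround the core and are needed for its assembly or stability.

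The cells were C57BL/6J mouse embryonic fibroblasts (MEF), connective tissue cells in culture. The 4 groups were Torin (Torin1, 250 nM for 2 h), shMETTL3 and shABCF1 (hairpin knockdown of METTL3 and ABCF1) and Scram, the scramble control. Torin1 inhibits the kinase mTOR, METTL3 writes N6-methyladenosine on mRNA, and ABCF1 belongs to the ABC proteins and binds eIF2 and ribosomes. The series asks which mRNAs are translated without eIF4F, the complex that binds the cap. All lysates held cycloheximide at 100 µg/ml, and DMSO was the vehicle of the Torin1 treatment; which cells received it, and which line received Torin1, is not stated per library. Each group had a Ribo-seq library, from ribosome-protected fragments of 25 to 35 nt, and an RNA-seq library, from fragments of 40 to 60 nt. Scram and both knockdowns had 2 replicates in each assay and Torin had 1 library. Nothing in the labels says that replicates were separate cultures or that more than 1 hairpin was used, so the spread behind each p-value is that between these libraries and may be technical.

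The deposited values are RPKM, read counts divided by length and by library depth, with 1 value per transcript. The steps of these values gave depths between 1764404 and 5155237 reads for Ribo-seq libraries and between 1197860 and 3802702 for RNA-seq libraries, and Torin was the shallowest library in both assays. The 37 genes had a median of 234 to 1235 reads per Ribo-seq library, with none under 38 reads, but of 31 to 124 in RNA-seq, where 1 to 7 genes per library had fewer than 20 reads. RNA-seq changes of single genes, and with them changes in translation efficiency (TE, the Ribo-seq minus the RNA-seq log2 change), are the less precise readout. Replicate 1 libraries form 1 set and replicate 2 libraries with Torin another, and the sets list different transcripts for 19.4% of genes and for 13 of the 37: Ndufa3, Ndufa4, Ndufa5, Ndufa12, Ndufab1, Ndufb2, Ndufb8, Ndufc1, Ndufc2, Ndufs1, Ndufs5, Ndufs7 and Ndufv1. Levels and changes below therefore use the transcript each set lists, changes are taken within a set, and levels of these 13 must not be compared between sets. The targeted genes were lower in their knockdowns in each assay and replicate: Abcf1 by 1.69 and 1.01 on the log2 scale in RNA-seq and 1.47 and 0.96 in Ribo-seq, and Mettl3 by 1.47 and 0.30 in RNA-seq (12 and 9 reads in the knockdown, 44 and 36 in Scram) and 2.55 and 1.21 in Ribo-seq. Of 13 fibroblast markers, 11 to 12 were listed per library, with Sparc, Col1a1 and Vim among the highest in RNA-seq. Of 12 markers of other cell types, Krt18 made up most of the sum, while Cdh5 and Myod1 were not listed and Ptprc, Lyz2 and Pecam1 were at or under 1.64 scaled RPKM. Others reached more in RNA-seq: Epcam 17.0 in METTL3 knockdown replicate 2, and Cd68 11.9 and Des 7.79 in ABCF1 knockdown replicate 2. The list had 5 to 6 markers listed and a sum of 78.6 (Torin) to 279.7 scaled RPKM in RNA-seq, and 1 to 9 listed and 31.9 to 66.2 in Ribo-seq.

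In Scram cells complex I mRNAs were abundant and densely covered by ribosomes. RPKM was scaled so that all libraries of an assay share a median, and the median over the 37 genes was then 35.9 and 38.8 scaled RPKM in RNA-seq (replicates 1 and 2), above 86.3% and 87.8% of all tested genes. In Ribo-seq it was 422 and 362, above 94.9% and 94.5% of genes. The log2 ratio of Ribo-seq to RNA-seq had a median of 3.66 and 3.10 over the 37, against 1.48 over all genes in either replicate, and 36 and 34 of the 37 lay above 1.48. Ribo-seq RPKM is per coding length and RNA-seq RPKM per transcript length, so the ratio is one of values on different length scales. The 37 mRNAs are short: their coding length had a median of 450 nt (all tested genes 1413), their 5′ untranslated region 96 nt (173) and their 3′ untranslated region 121 nt (941).

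Subunit genes did not all have the same footprint level. The SD of the log2 Ribo-seq level over the 37 was 1.14 and 0.92 in the Scram replicates, against 2.44 and 2.34 over all genes. Ndufa4 had the highest level, 2856 and 1675 scaled RPKM, and within the modules Ndufa2, a small accessory subunit of the N module with a thioredoxin-like fold, had 1922 and 1068. Ndufs1, the largest subunit and carrier of iron-sulfur clusters in the N module, had the lowest, 57.2 and 67.9. Module medians lay close together: 303 and 287 in the N module (10 genes), 303 and 269 in the Q module (6), 465 and 389 in the proximal membrane arm (9), and 474 and 405 in the distal membrane arm (10). In replicate 2 the genes ranged between 67.9 and 1068 in the N module, between 217 (Ndufs3) and 472 (Ndufa5) in the Q module, between 152 (Ndufa10) and 981 (Ndufc2) in the proximal arm, and between 241 (Ndufb5) and 598 (Ndufb8) in the distal arm. Ndufab1, the mitochondrial acyl carrier protein that also serves fatty acid synthesis, had 192 and 314, on different transcripts.

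**Figure D1:**
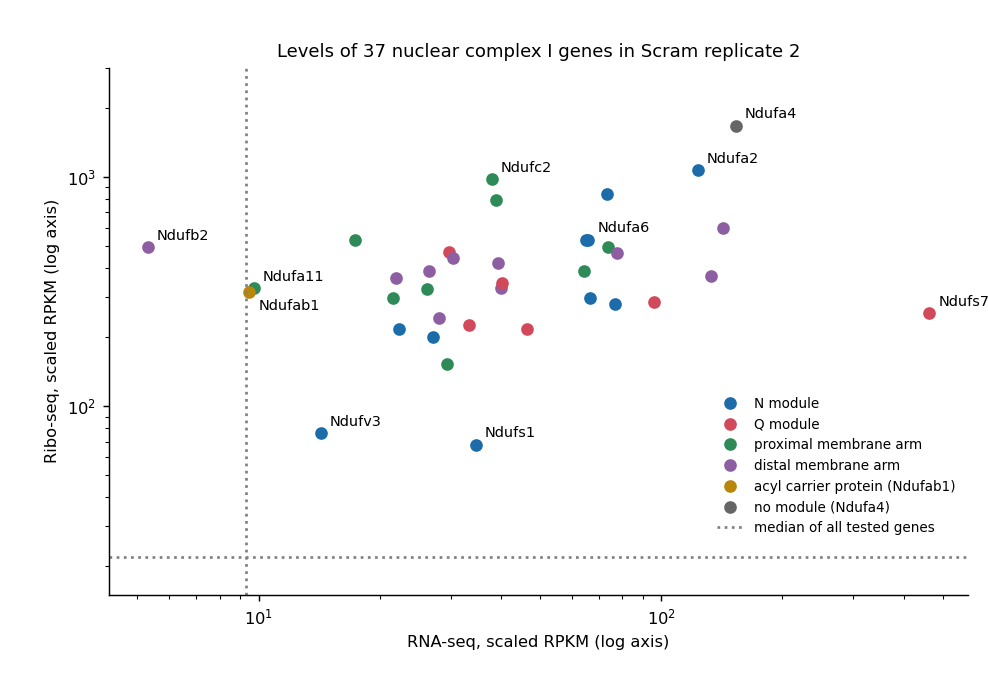
Scaled RPKM of 37 nuclear complex I genes in Scram replicate 2, RNA-seq on the x axis and Ribo-seq on the y axis (both log axes), 1 point per gene and colours for modules; dotted lines are the medians of all tested genes. Every point lies above the Ribo-seq median of all genes, with Ndufs1 lowest at 67.9 and Ndufa4 highest at 1675.

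With Torin, most complex I mRNAs had fewer ribosome footprints, relative to all genes, than in Scram cells, while their RNA-seq changes lay around 0. Libraries of an assay were scaled to a common median, so a change shared by all genes would not show in any comparison here. The Ribo-seq log2 change against Scram replicate 2 was below 0 for 33 of 37 genes (48.7% of all tested genes), with a median of -0.54 and a range of -2.13 to 0.38, beside a median of 0.02 over all 10098 genes. A change of 2-fold or more downward was seen for 7 genes (4.02% of all genes) and upward for 0 (2.93%). Torin was lower than all 3 other libraries of its set, both knockdowns included, for 33 of 37 genes (32.5% of all genes). This is a comparison of 1 library with others, with no replicate check. In lysates of whole cultures, fewer footprints per cell cannot be told apart from fewer cells carrying them. The set's other libraries give a scale: METTL3 and ABCF1 knockdown replicate 2 had medians of 0.09 and 0.11 over the same genes.

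The distal membrane arm had the lowest median, -0.76, and all 10 of its genes were below 0. Its lowest members were Ndufb4 (-1.38), Ndufb10 (-1.21), Ndufb5 (-1.10) and Ndufb11 (-1.07), small accessory subunits that cross or face the inner membrane. In the N module the median was -0.60, with 8 of 10 genes below 0 and Ndufa6 (-2.13) and Ndufa12 (-1.02) past 2-fold. The proximal membrane arm had a median of -0.46 and 7 of 9 genes below 0, with Ndufa3 at -1.29. The Q module, which holds the ubiquinone site, had a narrow range of -0.55 to -0.18 with all 6 genes below 0 and a median of -0.42. The differences between modules were not tested. The 95% exact counting interval was -1.70 to -1.09 for Ndufb4 and -1.48 to -0.96 for Ndufb10. Of the genes below 0, Ndufa5 (-0.39 to 0.021), Ndufb3 (-0.33 to 0.11), Ndufs5 and Ndufv3 had intervals that included 0. The intervals cover counting error only, and reads without molecular identifiers are not independent molecules.

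**Figure D2:**
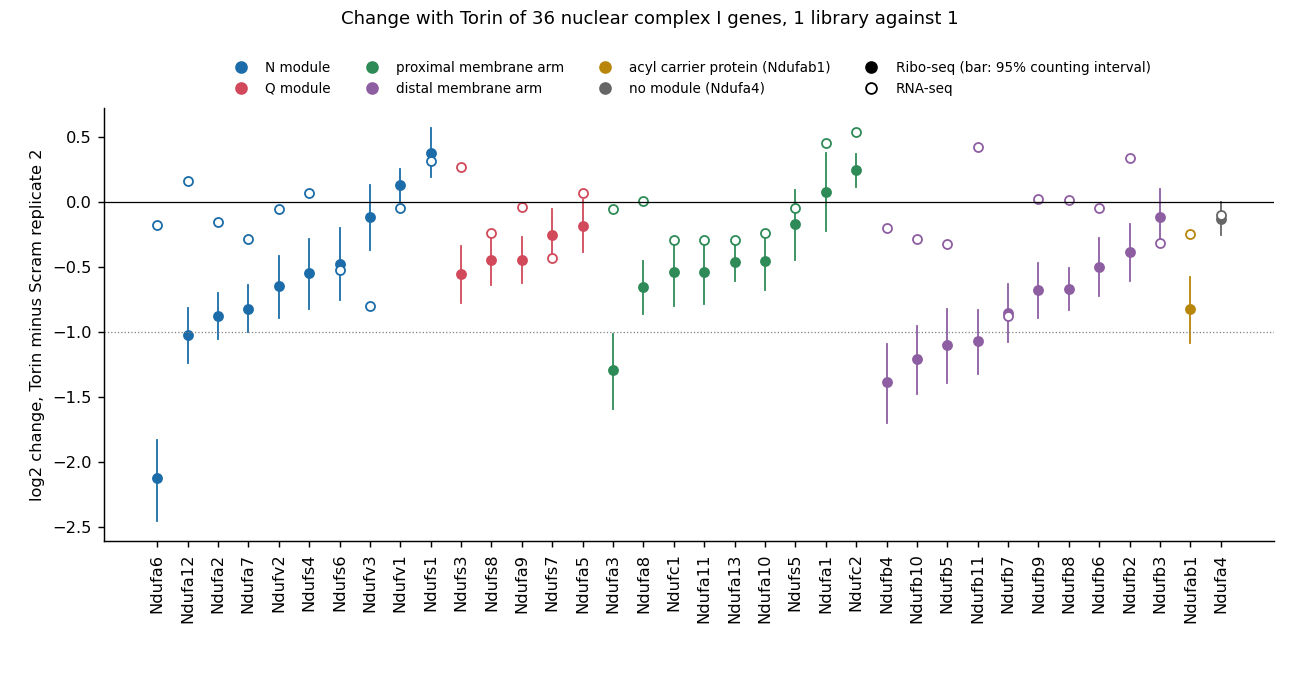
Log2 change of 36 complex I genes, Torin minus Scram replicate 2, in Ribo-seq (filled points, bars are 95% counting intervals) and RNA-seq (open points), ordered by Ribo-seq change within each module; the dotted line marks a change of -1. Most filled points lie below 0, and the lowest is Ndufa6 at -2.13, while open points scatter around 0, between -0.88 and 0.55.

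Ndufa6 stood lowest. The gene lies at chr15:82350140-82354322 (GRCm38, minus strand) and encodes an accessory subunit of the LYR family that binds an acyl carrier protein at the matrix arm. Its Ribo-seq level was 121 scaled RPKM with Torin, 567 and 503 in METTL3 knockdown, 461 and 584 in ABCF1 knockdown, and 459 and 532 in Scram. The Torin library thus lay below all 6 others, whose levels overlapped one another, and the same transcript is listed in both sets. In RNA-seq the levels were 58.4 with Torin, 65.6 and 86.6 in METTL3 knockdown, 50.2 and 76.6 in ABCF1 knockdown, and 54.6 and 65.9 in Scram, so Torin lay inside the range of the others. Footprints with Torin were 22.9% of those in Scram replicate 2 (96 and 806 reads; log2 change -2.13, 95% counting interval -2.46 to -1.83), the 48th lowest of 10098 genes. Its TE change was -1.96, the 75th lowest of 8863.

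Ndufa6 was also the only complex I gene to pass a test in fits that used all libraries, and only with the replicate block. In limma without a replicate block (the replicate number as a term of the fit), with the spread of the lone Torin library taken from the other groups, 0 of 34 genes were called (0% of 9534 genes), and Ndufa6 had a log2 change of -2.02 ± 0.30 (SE) with an adjusted p of 0.847. Before adjustment, 4 of the 34 had p under 0.05, all lower with Torin, as had 435 of all genes. With the replicate number as a block, Ndufa6 fell by 2.08 ± 0.28 with a limma adjusted p of 0.0223 (120 genes called, 1.26%), and with the transcripts of each set as well the adjusted p was 0.0151 (152 genes called, 1.45%). In that form, without each of the 6 Scram and knockdown replicates in turn, the log2 change of Ndufa6 was -2.166 to -2.003. The lone Torin library was part of all these fits, so they cannot show whether the change rests on it. The block in TE gave limma adjusted p values of 0.0688 and 0.0671 for Ndufa6, which miss the threshold of 0.05.

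Ndufb10, a distal-arm subunit on the intermembrane space side, and Ndufb4 had footprint levels that differed between the sets. Ndufb10 had 142 scaled RPKM with Torin, 652 and 334 in METTL3 knockdown, 594 and 400.2 in ABCF1 knockdown, and 552 and 329 in Scram, so Torin lay below all 6 other libraries. Ndufb4 had 138 with Torin, 238 and 315 in METTL3 knockdown, 109.7 and 360.1 in ABCF1 knockdown, and 138 and 362 in Scram. Within its set the Torin level of Ndufb4 was the lowest, but replicate 1 of Scram and of ABCF1 knockdown reached as low. Ndufa3, a small subunit of the proximal arm, had 201 with Torin, against 850.0, 638 and 494 in the METTL3 knockdown, ABCF1 knockdown and Scram libraries of its set.

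The 4 genes whose footprints were not lowest with Torin were Ndufs1, Ndufv1, Ndufc2 and Ndufa1. Ndufs1 had 88.7 with Torin, against 72.4, 81.3 and 67.9 in METTL3 knockdown, ABCF1 knockdown and Scram replicate 2, a log2 change against Scram of 0.38 (95% counting interval 0.20 to 0.57). Ndufv1, which binds FMN and takes electrons from NADH, had 305, against 361, 309 and 278 in the same libraries, a change of 0.13 (0.01 to 0.26). Both are core subunits of the N module, and both have long coding sequences for this complex, 2184 and 1395 nt. Ndufc2, a membrane-arm subunit, had 1163, against 862, 1362 and 981, a change of 0.25 (0.12 to 0.37). Ndufa1, encoded on the X chromosome, had 342, against 328, 255 and 323, a change of 0.08 (-0.22 to 0.38), so the last 3 lay inside or near the spread of their set.

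**Figure D3:**
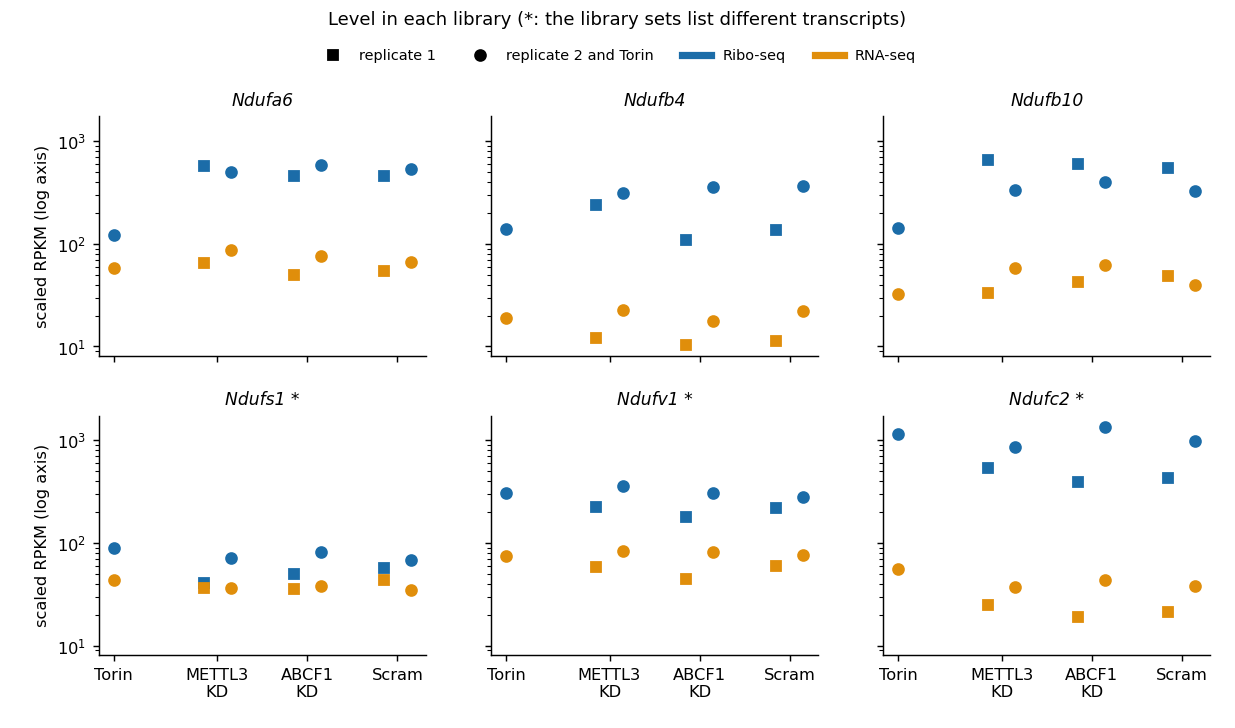
Scaled RPKM (log axis) in each library for 3 genes with low and 3 with high Ribo-seq change under Torin, Ribo-seq in blue and RNA-seq in orange, groups along the x axis (KD, knockdown), squares for replicate 1 and circles for replicate 2 and Torin. For Ndufa6 and Ndufb10 the blue Torin circle (121 and 142) lies below all 6 other Ribo-seq points, while for Ndufs1, at 88.7, it lies above the 3 other blue circles; an asterisk marks genes for which squares and circles rest on different transcripts.

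In RNA-seq the genes lay on both sides of 0 with Torin. The log2 change was below 0 for 24 of 37 genes (49.1% of all genes), with a median of -0.05 (all genes 0.01), and 0 genes passed 2-fold lower (0.619%) or higher (1.02%). Torin was lower than all 3 other libraries of its set for 15 of 37 genes (27.2%). The lowest were Ndufb7 (-0.88), Ndufv3 (-0.80), Ndufs6 (-0.52) and Ndufs7 (-0.43), and the highest Ndufc2 (0.55), Ndufa1 (0.46), Ndufb11 (0.43) and Ndufb2 (0.34). Ndufv3 rested on 11 reads with Torin and 74 in Scram replicate 2, with a 95% counting interval of -1.98 to 0.01. The summed fibroblast markers were also lowest with Torin in RNA-seq, at 7105 scaled RPKM against 9998 to 14792 in the other libraries, though not in Ribo-seq (4607 against 2879 to 4376); their part in these values was not tested.

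TE with Torin was below 0 for 30 of 37 genes (50.5% of all genes), with a median of -0.45 (all genes -0.01). It was 2-fold or more lower for 5 genes (5.27%) and higher for 0 (2.87%). After Ndufa6, the lowest were Ndufb11 (-1.50), Ndufa3 (-1.25), Ndufa12 (-1.19), a late-assembling matrix-arm subunit, and Ndufb4 (-1.19). Ndufb11 combined a low Ribo-seq change with an RNA-seq change above 0. The highest were Ndufv3 (0.68), Ndufb3 (0.20), Ndufv1 (0.18) and Ndufs7 (0.18). The Ribo-seq change of Ndufv3 was -0.11, so its TE value rests on the 11 RNA-seq reads. In limma 0 of 34 complex I genes were called in Torin RNA-seq or TE, with or without the block; without it, 0 and 1 had an unadjusted p under 0.05, as had 229 and 333 of all genes. With the block 14 genes (0.155%) were called over all genes in RNA-seq and 59 (0.626%) in TE, and with the transcripts of each set as well 24 (0.24%) and 65 (0.622%), again with no complex I gene among them.

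The other nuclear genes of oxidative phosphorylation had medians near that of complex I. The Ribo-seq median with Torin was -0.52 over 37 genes of complexes II to V, with 35 below 0 and 5 past 2-fold lower, of which Atp5g1 had the lowest change (-1.66). Torin was lower than all 3 others of its set for 34 of these 37. Mitochondrial ribosomal proteins had a median of -0.47 over 77 genes. The mRNAs of cytosolic ribosomal proteins begin with a terminal oligopyrimidine (TOP) tract that makes them sensitive to mTOR. Over 72 genes chosen by symbol for this group the median was -2.12, with 70 past 2-fold lower. The 72 include the paralogs Rps27l (-0.75) and Rpl7l1 (-0.08) and leave out Rpsa. Ndufa6, at -2.13, lay at the median of the ribosomal protein genes. The differences between these groups were not tested. Scaling moves the values: with 1 transcript per gene the complex I median was -0.52, but -0.32 without scaling, where all genes had 0.21, and -0.26 with quantile normalization. In limma without the block, against both Scram libraries, quantile normalization gave medians of -0.39 for complex I and -0.12 for all genes. With the common median they were -0.52 and 0.08, so complex I lay nearer to all genes with quantile normalization.

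**Figure D4:**
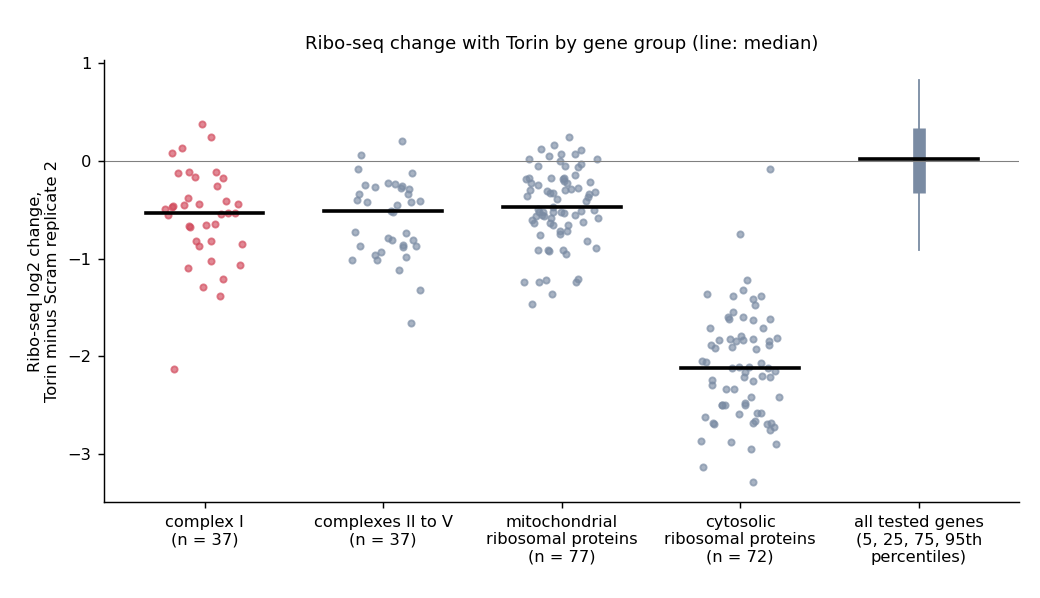
Ribo-seq log2 change, Torin minus Scram replicate 2 (y axis), 1 point per gene in 4 gene groups with black lines at the medians; for all tested genes the thin and thick bars span the 5th to 95th and 25th to 75th percentiles. Complex I (median -0.54) overlaps complexes II to V (-0.52) and mitochondrial ribosomal proteins (-0.47), and cytosolic ribosomal proteins lie lower (-2.12).

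The starts of the mRNAs were read from RefSeq promoters (GRCm38.p6), which run from 250 bases before to 50 after an annotated start, since the TOP tract begins at the first base. A C followed by 4 pyrimidines stood at the annotated start of 1 of the 33 complex I genes with an entry, Ndufb11, and of 3.01% of all genes with an entry; among cytosolic ribosomal proteins it stood at 14 of 63, so annotated starts find only some known TOP mRNAs. Ndufa2, Ndufa4l2, Ndufb9 and Ndufs1 were among the genes with no entry. The windows below, 10 bases before to 20 from the start on the coding strand, show the 6 genes with the lowest footprint changes and, of the 4 with a change above 0, the 3 with an entry, beside Rps6, a ribosomal protein gene; capitals mark the first 5 bases from the annotated start.
Ndufa6, chr15:82354272-82354301, minus strand: tgcaggaggcACGGCagcgagtcccgtggc
Ndufb4, chr16:37654349-37654378, minus strand: atgtgcgccgGGAGTcaagatgtcgggttc
Ndufa3, chr7:3617363-3617392, plus strand: agagagctccGCTCCttgtcgccgccaaga
Ndufb10, chr17:24724404-24724433, minus strand: acctttctgcGCAGGcgtagaggtcccgcg
Ndufb5, chr3:32737053-32737082, plus strand: ccccacttccTTCCGtggccggtgtagcca
Ndufb11, chrX:20617600-20617629, minus strand: aagaggcccgCTCTTtagaagcttgctgtc
Ndufc2, chr7:97399993-97400022, plus strand: ttagaagcccGGAACctcgcgtgcagaggt
Ndufv1, chr19:4012736-4012765, minus strand: acggaggtccCTGGAcacgccactggctgc
Ndufa1, chrX:37191219-37191248, minus strand: gcgaacgccaGTCACttttgggcccccaca
Rps6, chr4:86857348-86857377, minus strand: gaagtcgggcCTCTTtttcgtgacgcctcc
Ndufb11 and Rps6 share the capitals CTCTT, Ndufb5 has TTCCG, with pyrimidines up to its last capital but no leading C, and the capitals of the other genes mix purines and pyrimidines. The start used in these cells was not measured.

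Known promoter motifs of respiratory genes were searched on both strands of the same windows of 300 bases. The YY1 motif AAGATGGC was in 7 of 33 complex I promoters (Ndufa3, Ndufa9, Ndufb8, Ndufc1, Ndufs4, Ndufs6 and Ndufs7) and in 3.19% of all promoters. The ETS motif CCGGAAG, which can overlap it by the letters AAG, was in 4 (Ndufb6, Ndufb7, Ndufs3 and Ndufs8) and in 9.93% of all. The NRF1 motif, a palindrome of 10 bases searched without mismatches, was in 1, Ndufa11, and in 1.07% of all, and the ERR motif TCAAGGTCA in 0 and 0.466%. Across the 37 genes the Ribo-seq change with Torin had a Spearman correlation of 0.37 with the length of the 5′ untranslated region, 0.08 with coding length, 0.02 with the length of the 3′ untranslated region and -0.03 with the Scram ratio of Ribo-seq to RNA-seq; these are descriptions over genes that share both libraries.

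In METTL3 knockdown, footprints of complex I mRNAs lay above those in Scram for most genes, by small amounts. The Ribo-seq change was above 0 in both replicates for 22 of 37 genes (32.8% of all genes) and below 0 in both for 2 (25.2%), with a median of 0.20 (0.30 in replicate 1 and 0.09 in replicate 2; all genes 0.04). Ndufa3 had the largest change, 0.83 and 0.78 in the replicates, then Ndufs6, a zinc-binding N-module subunit, with 0.81 and 0.49, and Ndufc1 with 1.13 and 0.13. Ndufa3 had 881 and 850.0 scaled RPKM in METTL3 knockdown, against 494 and 494 in Scram. The genes lower in both were Ndufa4 (-0.11 and -0.11) and Ndufb5 (-0.14 and -0.08). In limma 0 of 34 were called in Ribo-seq (0% of all genes) and 0 had an unadjusted p under 0.05, as had 345 of all genes; with the block 0 were called and 3 had one, as had 1273 of all 9534 genes, a larger share, while 1 gene of all was called (0.0105%, or 0.00951% with the transcripts of each set).

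RNA-seq in METTL3 knockdown was above 0 in both replicates for 13 of 37 genes (28.6%) and below in both for 6 (25.1%), with a median of 0.06 (-0.03 in replicate 1 and 0.14 in replicate 2). Ndufa7, an accessory subunit of the matrix arm, had 0.61 and 0.63, Ndufc1 0.58 and 0.51 and Ndufb6 0.60 and 0.43. Ndufb8 (-0.06 and -0.38), Ndufs4 (-0.36 and -0.08), whose loss in mice causes a fatal encephalopathy, and Ndufab1 (-0.10 and -0.32) were lowest. TE was above 0 in both for 13 (30.4%) and below in both for 6 (24.9%), with a median of 0.14 (0.26 in replicate 1 but -0.08 in replicate 2), led upward by Ndufa5 (1.15 and 0.25), Ndufb7 (0.59 and 0.51) and Ndufa3 (0.12 and 0.96) and downward by Ndufa7 (-0.45 and -0.58), Ndufa12 (-0.52 and -0.23) and Ndufa4 (-0.14 and -0.15). In limma 0 of 34 were called in either (0% of all genes). Without the block 0 had an unadjusted limma p under 0.05, as had 88 of all genes in RNA-seq and 73 in TE. With the block 2 of the 34 had one in RNA-seq and 0 in TE, as had 385 of 9021 and 369 of 9428 genes.

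In ABCF1 knockdown, footprints lay on both sides of 0. The Ribo-seq change was above 0 in both replicates for 18 of 37 genes (28.7% of all genes) and below in both for 6 (24.1%), with a median of 0.09 (0.06 and 0.11; all genes 0.01). Ndufa3 again had the largest change, 1.02 and 0.37, with 1004 and 638 scaled RPKM in ABCF1 knockdown against 494 and 494 in Scram. Ndufa5, a Q-module subunit, had 0.93 and 0.37, and Ndufs3, a core subunit of the Q module, 0.75 and 0.04. Ndufa12 (-0.28 and -0.21), Ndufs6 (-0.34 and -0.13) and Ndufb4 (-0.33 and -0.01) were lowest. Both knockdowns and Torin are set against the same Scram libraries, so the comparisons are not independent, as for Ndufa3.

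**Figure D5:**
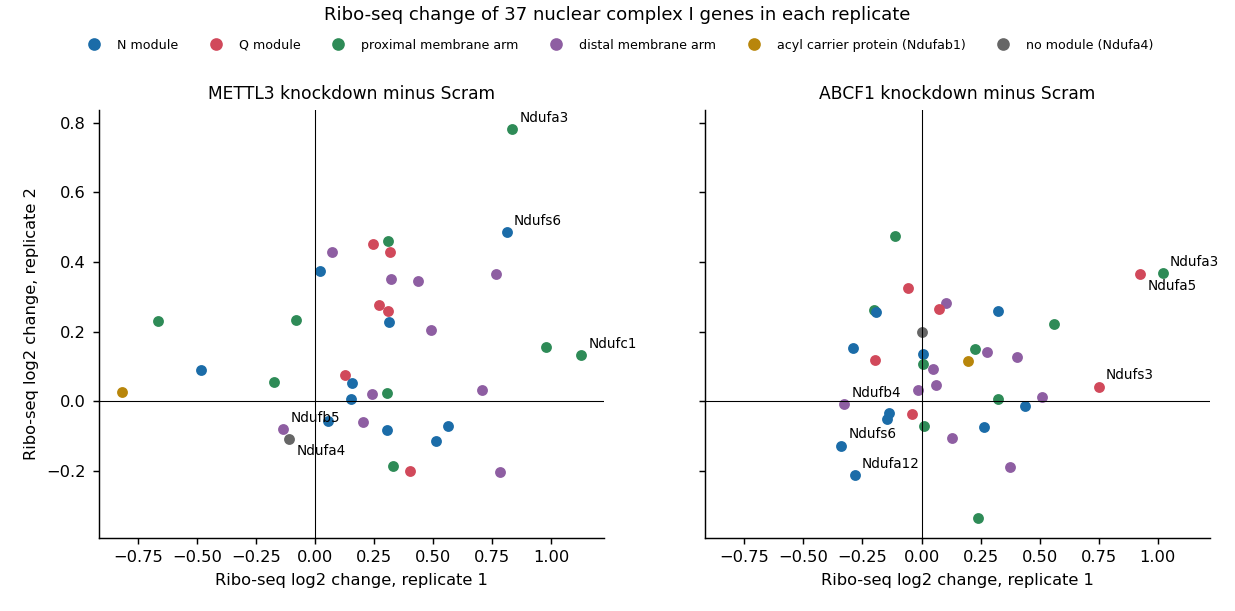
Ribo-seq log2 change of each complex I gene against Scram, replicate 1 on the x axis and replicate 2 on the y axis, for METTL3 knockdown (left) and ABCF1 knockdown (right), colours for modules and labels on the genes with the largest change in the same direction in both. The upper right quadrant holds 22 of 37 genes for METTL3 knockdown and 18 for ABCF1 knockdown.

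ABCF1 knockdown RNA-seq was above 0 in both replicates for 9 of 37 genes (25.5%) and below in both for 9 (27.6%), with a median of 0.05 (-0.11 in replicate 1 and 0.08 in replicate 2). Ndufa13, also known as GRIM-19, had 1.20 and 0.36, Ndufa5 0.85 and 0.35 and Ndufa12 0.81 and 0.35. Ndufs5 (-1.35 and -0.43), Ndufs3 (-0.76 and -0.21) and Ndufa10 (-0.20 and -0.35) were lowest, and replicate 1 of Ndufs5 rested on 1 read in the knockdown and 5 in Scram. TE was above 0 in both for 14 (29.8%) and below in both for 5 (24.4%), with Ndufs5 (1.68 and 0.43), Ndufs3 (1.51 and 0.25) and Ndufa3 (0.66 and 0.57) highest and Ndufa12 (-1.10 and -0.56), Ndufa13 (-0.64 and -0.14) and Ndufa7 (-0.44 and -0.22) lowest. In limma 0 of 34 were called in RNA-seq, Ribo-seq or TE of ABCF1 knockdown (0% of all genes), with or without the block. Without it, 0 had an unadjusted limma p under 0.05, as had 107, 151 and 56 of all genes. With the block 4, 1 and 2 of the 34 had one, as had 563 of 9021, 738 of 9534 and 339 of 9428 genes.

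The 7 core subunits, which carry the flavin and the iron-sulfur clusters, had a Ribo-seq median of -0.41 with Torin, beside -0.55 for the 29 accessory subunits; the difference was not tested. Changes were -0.65 for Ndufv2, -0.55 for Ndufs3, -0.45 for Ndufs8, -0.25 for Ndufs7, 0.13 for Ndufv1 and 0.38 for Ndufs1. Ndufs7 lies at the ubiquinone site. In METTL3 knockdown 5 of the 7 had a change above 0 in both replicates, among them Ndufs7 (0.27 and 0.28), Ndufs8 (0.31 and 0.26), Ndufv2 (0.31 and 0.23) and Ndufv1 (0.02 and 0.37), against Ndufs1 (-0.48 and 0.09) and Ndufs3 (0.40 and -0.20). In ABCF1 knockdown this held for 3, among them Ndufv2 (0.32 and 0.26) and Ndufs3, while Ndufs7 had -0.04 and -0.04. Ndufa6 had 0.30 and -0.08 in METTL3 knockdown and 0.01 and 0.13 in ABCF1 knockdown. Ndufab1 had -0.82 with Torin, -0.82 and 0.03 in METTL3 knockdown and 0.20 and 0.12 in ABCF1 knockdown.

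With 1 transcript per gene, the one with the highest mean over all libraries, fewer of the 37 genes could be used. With Torin, 30 of 34 genes were below 0 in Ribo-seq (48% of all genes), 6 were 2-fold or more lower (3.84%) and 0 higher (3.08%). In RNA-seq 21 of 34 were below 0 (48.8%), with 0 past 2-fold lower (0.583%) or higher (1.06%), and in TE 27 of 34 (50.1%), with 4 past 2-fold lower (5.15%) and 0 higher (2.95%). In METTL3 knockdown 18 of 28 were higher in both replicates in Ribo-seq (32.9%) and 1 lower (24.9%), 11 of 32 higher in RNA-seq (28.9%) and 5 lower (24.5%), and 8 of 28 higher in TE (30.3%) and 4 lower (24.8%). In ABCF1 knockdown 13 of 28 were higher in both in Ribo-seq (28.6%) and 4 lower (23.8%), 9 of 32 higher in RNA-seq (25.7%) and 7 lower (27.7%), and 7 of 28 higher in TE (29.6%) and 4 lower (24.1%).

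Reads of some of these genes cannot be assigned with certainty. Exons of other genes overlap the listed transcripts of 16 of the 38, on the same strand for Ndufb2, Ndufb8 and Ndufb9, and no label says whether strand was used in counting. On the same strand, Gm49356 overlaps 28.6% of the Ndufb9 transcript. Gm42420 overlaps 31.9% of the Ndufb2 transcript of replicate 1 and 3.3% of that of replicate 2 and Torin. For Ndufb8 and Gm20538 the shares are 6.3% and 19.7%, in the same order. Among the genes named above, 39.0% of the Ndufb6 transcript overlaps Smim27, 30.0% of the Ndufa13 transcript overlaps Tssk6, 20.0% of the Ndufb5 transcript overlaps Mrpl47, 12.9% of the Ndufb11 transcript overlaps Rbm10 and 12.8% of the Ndufa11 transcript overlaps Vmac, all on the other strand. GENCODE M21 also has processed pseudogenes named for Ndufa11, Ndufab1, Ndufb4 and Ndufs6, which may share reads with their parents.

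Among 18 assembly factors of complex I, which build the complex without staying in it, footprints with Torin had a median of -0.12, with 14 below 0 and 2 past 2-fold lower. These were Ndufaf6 (-1.06) and Ndufaf4 (-2.25). The Ribo-seq level of Ndufaf4 with Torin was low, under the median of all genes, 21.96 scaled RPKM in Scram replicate 2. Its read count is not given here, so its change may rest on few reads. Ndufaf4 had 4.78 scaled RPKM with Torin, 50.8 and 14.2 in METTL3 knockdown, 45.7 and 24.7 in ABCF1 knockdown, and 66.9 and 26.5 in Scram, so Torin lay below all 6 others. Its limma adjusted p was 0.0241 with the block and the transcripts of each set, and 0.858 without either. In METTL3 knockdown Ndufaf8 had 455 and 286 scaled RPKM, against 199.9 and 114 in Scram, a Ribo-seq change of 1.18 and 1.32 with a limma adjusted p of 0.109 in the same form of the test. In ABCF1 knockdown the median over the 18 was 0.11. In limma without the block 0 assembly factors were called in the Ribo-seq of Torin, METTL3 knockdown or ABCF1 knockdown.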

How the data were processed

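Per the submitters' processing notes, reads were handled with cutadapt and Bowtie on GRCm38; their versions are not known from the sources used here. The authors deposited 1 RPKM value per Ensembl transcript for each of 14 libraries. The steps between low values show that RPKM was set per coding length in Ribo-seq and per transcript length in RNA-seq; 98.7 to 98.8% of Ribo-seq and 80.5 to 85.4% of RNA-seq values came out as whole reads within 0.02. GENCODE M21 (GRCm38) gave genes for 22356 of 22453 transcripts.

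Genes listed in at least 0.5 of the libraries with a mean of at least 1 RPKM were kept, libraries of an assay were scaled to a common median over genes listed in all of them, and log2(RPKM + 1) was fitted with limma 3.58.1 (R 4.3.3; lmFit and eBayes with trend; Benjamini-Hochberg adjusted p under 0.05) on all 7 libraries of an assay, or on all 14 for TE. The pseudocount of 1 makes folds of low genes too small. Fold changes of Torin are against Scram replicate 2, with exact 95% counting intervals from the whole reads. Same-numbered libraries of different groups deviated together, with correlations of 0.81 to 0.94 (0.59 to 0.79 with the transcripts of each set), so the replicate number pairs the samples; the Torin libraries were put with replicate 2, whose transcripts they share.

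Using the transcripts of each set was decided after the data were seen. The genes, the gene lists and the rules were chosen with earlier results of these data known. Genes named in the text were the 3 per direction and assay with the largest mean change of the same sign in both replicates (4 with Torin), the core subunits, Ndufab1, Ndufa6 and any gene called; 1 gene counted in the totals is not reported here by name. The fit was also run on simulated data, with normally distributed noise whose spread was shuffled across genes, which does not mimic low read counts. Alternatives were no scaling, quantile normalization, a pseudocount of 0.1, no filter, a filter on all libraries, summed transcripts, both Scram libraries as control, and each replicate left out.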

Additional observations from a re-analysis of the deposited data

How the results depend on the processing

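Values here use 1 transcript per gene unless stated. limma called 0 genes in all 9 comparisons; with the replicate block it called 14 in Torin RNA-seq, 120 in Torin Ribo-seq (1 of complex I, Ndufa6), 59 in Torin TE and 1 in METTL3 knockdown Ribo-seq, and with the block and the transcripts of each set 24, 152 (1 of complex I, Ndufa6), 65 and 1. The block changed no other call of a complex I gene. With both, and without ABCF1 replicate 1, Ndufa8 was called in ABCF1 knockdown RNA-seq, which no other setting gave. That fit leaves 1 RNA-seq library of ABCF1 knockdown, so the call is not a result about Ndufa8. The RNA-seq change of Ndufa8 was below 0 in replicate 1 of ABCF1 knockdown and above 0 in replicate 2. Without the filter limma called 16 genes in Torin Ribo-seq and 58 in Torin TE, and with a pseudocount of 0.1 it called 39 in Torin TE.

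Without scaling, the complex I median was -0.21 in Torin RNA-seq, -0.32 in Torin Ribo-seq, -0.10 in Torin TE (all genes 0.34), -0.093 in ABCF1 knockdown RNA-seq, 0.13 in ABCF1 knockdown Ribo-seq and 0.19 in ABCF1 knockdown TE, where all genes also had 0.19; 1 gene was then past 2-fold lower with Torin in RNA-seq, 3 in Ribo-seq and 2 in TE, and 1 higher in TE. With quantile normalization it was -0.26 in Torin Ribo-seq and -0.17 in Torin TE, with 2 genes past 2-fold lower in each, and 0.13 in ABCF1 knockdown Ribo-seq. Against the mean of both Scram libraries, whose listed transcripts partly differ from those of Torin, it was 0.22 in RNA-seq, -0.67 in Ribo-seq and -0.74 in TE, with 6 genes past 2-fold higher in RNA-seq, 2 higher in Ribo-seq, and 9 lower and 2 higher in TE. The shares of all genes past 2-fold in these settings are not given here. The counts past 2-fold in this paragraph therefore show only how the values move and are not results about complex I. The ABCF1 knockdown TE median, 0.0025, was 0.045 with summed transcripts and 0.037 with the transcripts of each set.

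Leaving out 1 replicate, the median was -0.047 to 0.080 in ABCF1 knockdown RNA-seq, -0.049 to 0.13 in METTL3 knockdown RNA-seq, 0.065 to 0.31 in METTL3 knockdown Ribo-seq, -0.084 to 0.30 in METTL3 knockdown TE, and 0.017 to 0.047 in ABCF1 knockdown TE, so its sign differs between replicates in both RNA-seq comparisons and in METTL3 knockdown TE. The cause of these movements was not tested. Depth limits RNA-seq and TE most, since 7 complex I genes had fewer than 20 RNA-seq reads with Torin.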

Other observations

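The complex I genes encoded by the mitochondrial genome are translated by mitochondrial ribosomes. With Torin, 5 of the 6 used here had a Ribo-seq change above 0, with a median of 0.37, while their RNA-seq median was -0.37 and their TE lay above 0 for 6 of 6, with a median of 0.72; mt-Nd4 was not used here. These are values of 1 library against 1, with no replicate check. In RNA-seq their medians differed between replicates, at 1.06 and -0.10 in METTL3 knockdown and 1.63 and -0.17 in ABCF1 knockdown.

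Transcription factors of respiratory genes had a Ribo-seq median of 0.01 with Torin over 10 genes. Tfam, which packages and transcribes mitochondrial DNA, had 0.68, with 72.9 scaled RPKM with Torin against 45.0 in Scram replicate 2. Ppargc1a, a coactivator of mitochondrial biogenesis, had 0.90, but at very low levels of 1.88 with Torin, 2.46 in ABCF1 knockdown replicate 2 and 0.55 in Scram replicate 2, and it was not listed in METTL3 knockdown replicate 2. Nrf1 had -0.11, Yy1 -0.07 and Esrra -0.22.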
